A study of Mus musculus with 6 samples.

Results

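A set of 10 genes for antimicrobial and defence proteins of mucosal surfaces were followed in mouse salivary gland: Ltf, Lcn2, Slpi, Pigr, Wfdc2, Saa3, Lyz1, Lyz2, Reg3g and Defb1. They were chosen by name and matched by gene symbol, and all 10 were found among the 24054 genes of the table of read counts. The series compared 3 control libraries with 3 libraries from K5-rtTA:TetO-RANKL mice, called K5-RANKL here. In K5-RANKL mice the keratin 5 promoter drives a doxycycline-dependent activator that switches on a RANKL transgene, and the controls were monogenic, with a single transgene that the labels do not name. Doxycycline was given to both groups through food and drinking water, for 2 weeks from 9 weeks of age, and each library came from the pooled salivary gland tissue of 5 mice, so p-values measure the spread between pools. The labels name neither the strain, the sex nor which of the salivary glands were pooled.

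Saliva carries proteins that hold microbes in check. Lactoferrin (Ltf) binds iron, and lipocalin 2 (Lcn2) binds the siderophores with which bacteria take up iron. Lysozymes (Lyz1, Lyz2) cut the bacterial cell wall, REG3-gamma (Reg3g) is a lectin that attacks Gram-positive bacteria, beta-defensin 1 (Defb1) is a small cationic peptide that damages microbial membranes, and serum amyloid A3 (Saa3) is an acute phase protein. Slpi and Wfdc2 encode small secreted proteins with whey acidic protein domains, and SLPI inhibits serine proteases of leukocytes. The polymeric immunoglobulin receptor (Pigr) carries IgA across the epithelium into saliva. Lactoferrin and lipocalin 2 are also stored in neutrophil granules, and in the mouse Lyz2 is the lysozyme of macrophages while Lyz1 is best known from Paneth cells of the gut.

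Iron-binding, lysozyme, lectin, defensin and acute phase genes were higher in K5-RANKL glands, and the IgA carrier and SLPI were not distinguishable between groups. Of the 10 genes 8 rose, 0 fell and 2, Slpi and Pigr, did not pass the test (edgeR quasi-likelihood, Benjamini-Hochberg adjusted p under 0.05 over 14044 genes tested). Over all genes tested, 34.2% rose and 32.1% fell, 66.2% in either direction. The median log2 fold change of the 10 genes was 2.53, beside 0.01 over all genes tested. A rise of at least 4-fold was called for 6 of them (Ltf, Lcn2, Saa3, Lyz2, Reg3g and Defb1), against 6.65% of all genes. Saa3, Reg3g and Defb1 had under 10 counts in every control library and passed the low-count filter only through the K5-RANKL libraries, so their calls are no independent support. Of the other 7 genes, 5 rose, and among these Ltf, Lcn2 and Lyz2 rose by at least 4-fold. The middle value of the log2 fold changes of those 7 genes was 1.22, that of Lyz1. The groups did not overlap for 8 of the 10 genes, Saa3, Reg3g and Defb1 among them, always with K5-RANKL higher. Among all genes tested this held for 36.3% with K5-RANKL higher and for 70.4% in either direction.

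Read counts here depend on scaling. Total counts lay between 13875951 and 17921815 per library, and 3 counts correspond to 0.235 to 0.294 CPM (the count divided by the scaled library size) in controls and 0.124 to 0.160 CPM in K5-RANKL libraries. Tnfsf11, the RANKL gene, stood at 0.938 to 3.78 CPM in controls and at 701, 405 and 723 CPM in K5-RANKL libraries, in the direction of the labels; transgene and endogenous reads cannot be told apart in this count. The salivary protein gene Spt1 was at 392011 to 518706 CPM in controls and 94572 to 139848 CPM in K5-RANKL libraries. Library sizes were scaled by TMM, the trimmed mean method of edgeR; without that step the median of all genes moved to 1.01 on the log2 scale. By library totals all 10 genes rose, where 83.5% of all genes did. In these bulk samples fewer cells of a type and less RNA per cell cannot be told apart.

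The 250 bases upstream of the RefSeq start of the 4 genes with the highest log2 fold changes are shown because these genes rose together; coordinates and sequence are RefSeq's on GRCm38.p6, read 5′ to 3′. Capitals mark matches to the C/EBP letters TTGCNNAA, to the TATA box letters TATAAA and to the NF-kB letters, which are GGGA, any 4 bases, then CC. The STAT letters TTCNNNGAA were searched as well. The E-box letters CACGTG completed the search, which covered both strands. The matches do not overlap each other, and the Saa3 window lies within the bounds of that gene.
Reg3g, chr6:78468875-78469124, minus strand: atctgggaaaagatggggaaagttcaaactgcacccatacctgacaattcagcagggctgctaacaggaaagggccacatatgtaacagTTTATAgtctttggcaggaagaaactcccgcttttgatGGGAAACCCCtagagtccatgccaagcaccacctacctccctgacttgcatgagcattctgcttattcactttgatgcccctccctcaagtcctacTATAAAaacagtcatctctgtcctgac
Lcn2, chr2:32387740-32387989, minus strand: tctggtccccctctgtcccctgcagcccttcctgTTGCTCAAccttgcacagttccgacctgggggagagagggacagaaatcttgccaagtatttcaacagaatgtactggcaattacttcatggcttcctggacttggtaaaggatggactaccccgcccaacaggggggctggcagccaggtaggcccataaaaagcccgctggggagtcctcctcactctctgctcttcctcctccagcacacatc
Ltf, chr9:111019042-111019291, plus strand: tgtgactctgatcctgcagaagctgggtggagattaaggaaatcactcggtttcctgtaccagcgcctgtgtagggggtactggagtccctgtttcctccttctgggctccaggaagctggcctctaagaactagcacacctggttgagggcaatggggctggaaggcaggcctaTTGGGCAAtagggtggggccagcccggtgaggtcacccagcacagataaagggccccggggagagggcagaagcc
Saa3, chr7:46715677-46715926, minus strand: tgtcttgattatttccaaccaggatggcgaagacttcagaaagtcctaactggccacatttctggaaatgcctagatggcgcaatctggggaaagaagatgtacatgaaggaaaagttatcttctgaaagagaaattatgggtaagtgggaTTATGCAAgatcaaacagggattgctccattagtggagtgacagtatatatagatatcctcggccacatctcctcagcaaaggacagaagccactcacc
The C/EBP letters were present upstream of Ltf, Lcn2, Saa3, Lyz1 and Slpi, 5 of the 9 genes with a window, and in 9.56% of 32851 upstream windows of the same length. In Saa3 the match was TTATGCAA, 99 to 92 bases before the start, and in Ltf it was TTGGGCAA, 75 to 68 bases before it. Lcn2 held TTGCTCAA at 216 to 209 bases. Slpi, which did not pass the test, held TTGAGCAA at 241 to 234 bases. Whether a match goes with a rise was not tested. NF-kB letters were found upstream of Reg3g and Pigr, 2 of 9, and in 17.6% of windows; STAT letters were found in none of the 9 and in 7.02% of windows. The E-box letters stood upstream of Pigr, 71 to 66 bases before the start, and of Slpi, and in 6.02% of windows. These are letter matches in 250 bases. RefSeq's promoter table was used as given, and Defb1 was not printed.

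**Figure D1:**
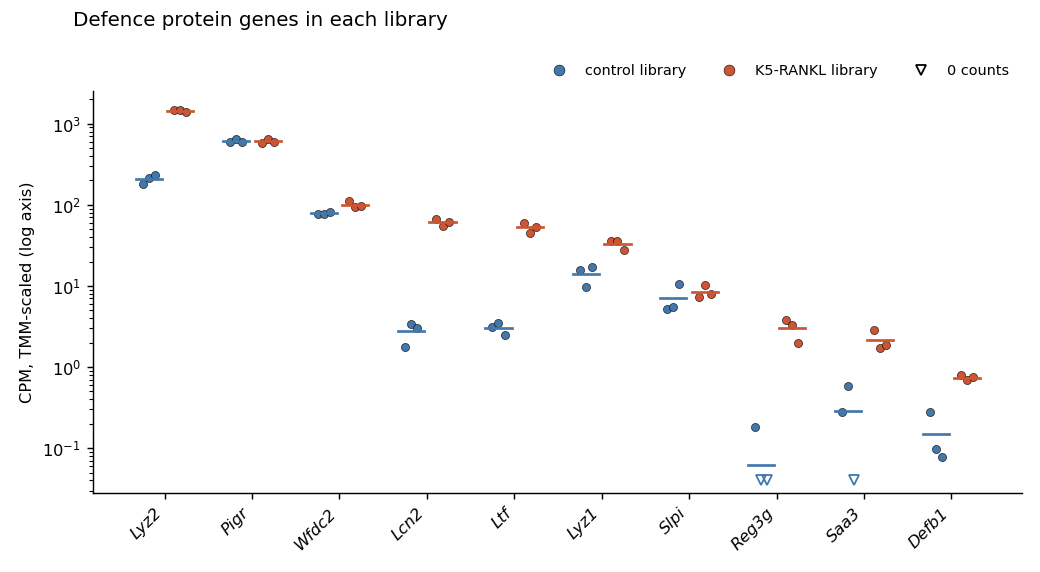
CPM on TMM-scaled library sizes (log y axis) of the 10 defence genes (x axis, ordered by K5-RANKL mean), 3 libraries a group; each point is a library, bars are group means and open triangles are libraries with 0 counts. Groups overlap for Pigr and Slpi and for no other gene shown, and Lyz2 is at 1376 to 1478 CPM in every K5-RANKL library.

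Lcn2, encoding the siderophore binder lipocalin 2 (Entrez 16819, chromosome 2 from 32384637 to 32387739 in GRCm38), stood at 1.75, 3.43 and 3.05 CPM in controls 1 to 3 and at 66.9, 55.5 and 61.0 CPM in K5-RANKL libraries 1 to 3. Every K5-RANKL library was far above every control. The log2 fold change of Lcn2 was 4.47 (SE 0.15; 22.2-fold higher; edgeR adjusted p = 4.78e-13), higher than 98.8% of all genes tested. Ltf, encoding lactoferrin (Entrez 17002, chromosome 9 from 111019292 to 111042766), stood at 3.13, 3.53 and 2.50 CPM in controls and at 59.4, 45.2 and 53.3 CPM in K5-RANKL libraries. It rose by 4.12 (SE 0.15, 17.4-fold, edgeR adjusted p = 5.46e-13). The groups were again far apart, and K5-RANKL 1 was highest and K5-RANKL 2 lowest for both genes. The ratio of Lcn2 to Ltf CPM was 0.917 ± 0.333 for controls against 1.17 ± 0.0545 for K5-RANKL (SD, n = 3 each; exact permutation test on log2 ratios, two-sided p = 0.3, adjusted p = 0.375 over 5 ratios computed, smallest p possible 0.1). The groups overlapped in this ratio, and control 1 was the lowest library.

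Markers of neutrophils, the other known source of these proteins, were low. Of 16 listed neutrophil markers 15 were in the table and 7 had enough counts to test. Where 34.2% of all genes tested rose, all 7 markers did. Of these, S100a8, S100a9 and Fpr1 had under 10 counts in every control and passed the filter only through the K5-RANKL libraries; the other 4 are Mmp9, Csf3r, Cxcr2 and Il1r2. The summed level of all 15 markers was 6.26 to 8.60 CPM in controls and 134 to 179 CPM in K5-RANKL libraries. Of this sum Mmp9, a gelatinase that macrophages and osteoclasts also make, was 2.12 to 2.45 and 115 to 161 CPM. Mmp9 rose by 5.99 (SE 0.18, edgeR adjusted p = 6.54e-11). The G-CSF receptor gene Csf3r rose by 2.23 (SE 0.20) to 6.65 ± 0.634 CPM and the chemokine receptor gene Cxcr2 by 1.53 (SE 0.25) to 3.23 ± 0.0758 CPM. The calprotectin genes S100a8 and S100a9 rose by 1.23 (SE 0.48) and 2.10 (SE 0.54) to 1.02 ± 0.517 and 1.54 ± 0.526 CPM. The call of S100a8 (edgeR adjusted p = 0.0342) was lost with DESeq2, with voom with and without quality weights, and without control 1, control 2 or K5-RANKL 1, at adjusted p between 0.0567 and 0.233. Formyl peptide receptor gene Fpr1 and decoy receptor gene Il1r2 rose by 3.81 (SE 0.83) and 1.42 (SE 0.23).

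Several other genes for granule proteins of neutrophils, not all from the same granules as lactoferrin and lipocalin 2, were near 0 in both groups. Camp (cathelicidin) had 4 counts over the 3 controls and 8 over the 3 K5-RANKL libraries, Ngp 2 and 6, Mpo (myeloperoxidase) 9 and 14, Elane (neutrophil elastase) 3 and 2, Prtn3 2 and 11, and Ctsg 1 and 7. The remaining untested markers on the neutrophil list, Mmp8 and Retnlg, each went from 2 to 21 counts, without overlap between the groups. Over the same libraries Ltf went from 102 to 3421 counts and Lcn2 from 93 to 3964. Most of these granule genes are transcribed in immature neutrophils of the bone marrow. The part of neutrophil number in the rise of Ltf and Lcn2 was not tested.

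**Figure D2:**
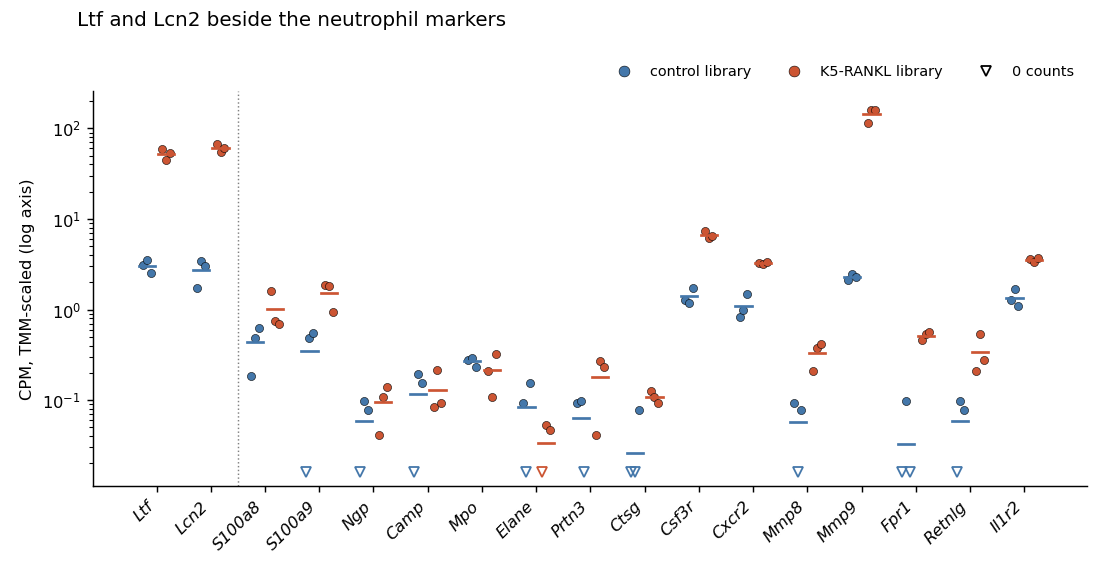
CPM (log y axis) of Ltf and Lcn2, left of the dotted line, and of 15 neutrophil markers in each library; points are libraries, bars are group means, open triangles are libraries with 0 counts. Ltf and Lcn2 lie at 45.2 to 66.9 CPM in K5-RANKL libraries, where of the 15 markers only Mmp9 exceeds 10 CPM, and Ngp, Camp, Mpo, Elane, Prtn3 and Ctsg stay under 0.4 CPM in every library.

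Lyz2 held the largest share of the group's counts in K5-RANKL glands. The lysozyme of macrophages (Entrez 17105, chromosome 10 from 117277541 to 117282272) stood at 181, 216 and 232 CPM in controls and at 1478, 1464 and 1376 CPM in K5-RANKL libraries. Within each group the libraries lay close together and the groups were well separated. Lyz2 rose by 2.78 (SE 0.10, 6.86-fold, edgeR adjusted p = 3.79e-13). Its share of the summed CPM of the 10 genes went from 20.8 to 24.6% in controls to 62.1 to 62.9% in K5-RANKL libraries, and that of Pigr from 63.3 to 67.5% to 24.8 to 27.2%. Lyz1 (Entrez 17110, chromosome 10 from 117287795 to 117292868), the neighbouring lysozyme gene, stood at 15.6, 9.71 and 17.3 CPM in controls and at 35.9, 36.1 and 27.9 CPM in K5-RANKL libraries. It rose by 1.22 (SE 0.19, 2.32-fold, edgeR adjusted p = 0.000609), and no control reached the lowest K5-RANKL library.

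The ratio of Lyz2 to Lyz1 CPM was 11.7, 22.3 and 13.4 in controls and 41.1, 40.6 and 49.3 in K5-RANKL libraries. The ratio did not overlap between groups (exact permutation test on log2 ratios, two-sided p = 0.1, the smallest that 3 against 3 libraries allow, adjusted p = 0.167 over 5 ratios). The genes are close copies, shown here because reads that fit both cannot be assigned with certainty. Their coding sequences of 444 bases without the stop codon matched at 422 positions (95%). Bases 37 to 156 of the coding sequence, counted from 1 at the start codon in the GENCODE M21 transcripts, held 14 of the 22 differences, marked by capitals.
Lyz1: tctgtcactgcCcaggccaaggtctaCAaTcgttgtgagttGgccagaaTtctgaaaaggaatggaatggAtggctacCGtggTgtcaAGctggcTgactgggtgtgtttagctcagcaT
Lyz2: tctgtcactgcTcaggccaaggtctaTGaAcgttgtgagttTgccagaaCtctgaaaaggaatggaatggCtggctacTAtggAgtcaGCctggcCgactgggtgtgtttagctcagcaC
Of the 50-base words of the Lyz1 transcript, 16.1% were also in Lyz2, and of those of Lyz2 15.4% were in Lyz1. No label states how reads with several matches were counted. The part of Lyz2 reads in the rise of Lyz1, the much less abundant gene, was not tested. With the pair summed as 1 gene, the value in place of the Lyz2 log2 fold change was 2.72 (SE 0.10). The 100 bases before the start differed at 8 positions, in capitals, and the 50 nearest the start were identical.
Lyz1, chr10:117292869-117292968, minus strand: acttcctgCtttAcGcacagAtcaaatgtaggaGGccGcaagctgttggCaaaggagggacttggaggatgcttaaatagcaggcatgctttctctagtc
Lyz2, chr10:117282273-117282372, minus strand: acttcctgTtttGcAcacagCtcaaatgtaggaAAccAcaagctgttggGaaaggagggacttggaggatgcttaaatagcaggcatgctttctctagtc

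Macrophage markers rose beside Lyz2. Of 14 listed macrophage genes, Lyz2 among them, 14 rose and 0 fell (median log2 fold change 2.20), and none was at 0. The share of all genes tested that rose was 34.2%. The summed level of the 14 was 417 to 500 CPM in controls and 2641 to 2762 CPM in K5-RANKL libraries. Lyz2 itself made up 181 to 232 CPM of that sum in controls and 1376 to 1478 CPM in K5-RANKL libraries. The complement genes C1qa and C1qc rose by 2.77 (SE 0.08) and 2.43 (SE 0.07), from 42.8 ± 2.40 to 292 ± 5.11 CPM and from 40.0 ± 0.231 to 215 ± 7.22 CPM. Csf1r, Cd68 and Mertk were chosen after their values were seen. Csf1r, the receptor of macrophage colony-stimulating factor, rose by 2.21 (SE 0.09), and the efferocytosis receptor gene Mertk by 0.49 (SE 0.14). The ratio of Lyz2 to Csf1r CPM was 4.09 to 4.46 in controls and 6.29 to 6.41 in K5-RANKL libraries, and that of Lyz2 to the lysosomal marker Cd68 19.0 to 20.1 and 20.8 to 25.3. Neither ratio overlapped between groups (exact permutation test, two-sided p = 0.1 each, adjusted p = 0.167). The part of macrophage number in the rise of Lyz2 was not tested.

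Reg3g, Saa3 and Defb1 were scarce, and their sizes are uncertain. Reg3g (Entrez 19695, chromosome 6 from 78466269 to 78468874) had 2, 0 and 0 counts in controls and 92, 62 and 42 counts in K5-RANKL libraries, 3.82, 3.31 and 1.96 CPM. It rose (edgeR adjusted p = 1.15e-06), and the ratio of counts scaled to library size was 51.6 (95% interval from the counts 14.1 to 429). Saa3 (Entrez 20210, chromosome 7 from 46711998 to 46719615) had 3, 6 and 0 counts in controls and 69, 32 and 40 in K5-RANKL libraries, 2.86, 1.71 and 1.86 CPM. It rose by 2.99 (SE 0.52, edgeR adjusted p = 0.00016), a ratio of 8.25 (95% interval from the counts 4.22 to 18.4). Defb1 (Entrez 13214, chromosome 8 from 21776555 to 21795185) had 3, 1 and 1 counts in controls and 19, 13 and 16 in K5-RANKL libraries, 0.788, 0.695 and 0.745 CPM. It rose by 2.28 (SE 0.53, edgeR adjusted p = 0.00105), a ratio of 5.05 (95% interval from the counts 2.02 to 16.3). In all of these the lowest K5-RANKL library lay above the highest control, and the intervals are exact and cover counting error only. Their close relatives stayed near 0: Reg3b, Defb3 and Defb14 had 0 counts in controls and 2 counts each over the K5-RANKL libraries, and Saa1 and Saa2 had 2 and 0 counts in controls and 6 each in K5-RANKL libraries.

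Wfdc2 and Slpi, the genes with whey acidic protein domains, changed little. Wfdc2 (Entrez 67701, chromosome 2 from 164562715 to 164568510) stood at 76.7, 77.1 and 81.0 CPM in controls and at 110, 94.0 and 96.6 CPM in K5-RANKL libraries. The groups did not overlap, and it rose by 0.36 (SE 0.08, 1.28-fold, edgeR adjusted p = 0.000618). Slpi (Entrez 20568, chromosome 2 from 164354070 to 164356507) stood at 5.16, 5.49 and 10.7 CPM in controls and at 7.38, 10.3 and 7.92 CPM in K5-RANKL libraries. Control 3 was above every K5-RANKL library, and the log2 fold change was 0.22 (SE 0.27, edgeR adjusted p = 0.497). Without control 3 it was 0.67 (adjusted p = 0.00603). The ratio of Wfdc2 to Slpi CPM was 12.2 ± 4.0 for controls against 12.1 ± 2.89 for K5-RANKL (SD, n = 3 each; exact permutation test, two-sided p = 0.9, adjusted p = 0.9).

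Other genes of the whey acidic protein family, chosen here after their values were seen except Wfdc17 and Wfdc12, went both ways. Wfdc17 and Wfdc18, neighbours on chromosome 11, rose by 3.85 (SE 0.14, from 2.10 ± 0.397 to 30.0 ± 1.22 CPM) and 1.53 (SE 0.10, from 199 ± 14.4 to 575 ± 89.7 CPM). Wfdc12, on chromosome 2 from 164189231 to 164190558, fell by 1.76 (SE 0.11), from 1863 ± 48.6 to 548 ± 81.8 CPM. A list of leukocyte, mast cell and epithelial proteases was set beside this family, and it includes Mmp9, also counted as a neutrophil marker. Whether proteins of the family inhibit each listed protease was not tested. The list was partly at the floor: Elane, Prtn3 and Ctsg had too few counts to test. Of 7 measured genes of the protease list 6 rose and 1 fell, where 34.2% of all genes tested rose and 32.1% fell. Prss22, among the 6, passed the filter only through the K5-RANKL libraries. The mast cell protease genes Cma1, Mcpt4 and Tpsb2 rose by 1.17, 1.18 and 1.34, and Mmp9 as given above. Klk8 rose by 0.48 (SE 0.20, edgeR adjusted p = 0.0443), near the threshold. Prss22, with 1 count in controls and 50 in K5-RANKL libraries, rose by a fitted 4.4. The epithelial protease gene Tmprss2 fell by 1.1 (SE 0.10), a call lost by library totals.

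Pigr was level between groups on the TMM scale. This gene (Entrez 18703, chromosome 1 from 130826684 to 130852249) stood at 587, 656 and 596 CPM in controls and at 584, 641 and 587 CPM in K5-RANKL libraries. The groups overlapped in part, with K5-RANKL 1 and 3 just under every control and control 2 above every K5-RANKL library, and the log2 fold change was −0.02 (SE 0.08, edgeR adjusted p = 0.824). By library totals Pigr rose by 0.97 (SE 0.10, adjusted p = 1.32e-09), about the 1.01 by which the median gene moved. Other genes of IgA and its transport went both ways: of 13 measured, 5 rose, 4 fell and 4 were not called (median log2 fold change 0.14). These counts are near the shares over all genes tested, of which 34.2% rose and 32.1% fell. Jchain, the chain that joins IgA into the polymers that the receptor carries, fell by 1.15 (SE 0.24, edgeR adjusted p = 0.00956), from 235 ± 50.1 to 106 ± 23.8 CPM, a call lost by library totals (−0.16, adjusted p = 0.477). The mucosal chemokine gene Ccl28, which draws IgA plasma cells, fell by 1.98 (SE 0.22), from 278 ± 41.4 to 70.7 ± 18.3 CPM. Rab3d, a GTPase of secretory vesicles, fell by 1.29 (SE 0.08), and the integrin gene Itgb7 rose by 1.1 (SE 0.09). Fcamr, which encodes an Fc receptor for IgA and IgM and lies next to Pigr on chromosome 1 (130784706 to 130825903), was chosen after its value was seen; it rose by 5.78 (SE 0.12), from 2.34 ± 0.130 to 128 ± 10.9 CPM. Igha, Ighm and Igkc were not analysed here. Among 5 measured plasma cell markers Prdm1 and Irf4 rose, Jchain and Derl3 fell and Mzb1 stood at 0.14 (SE 0.15).

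**Figure D3:**
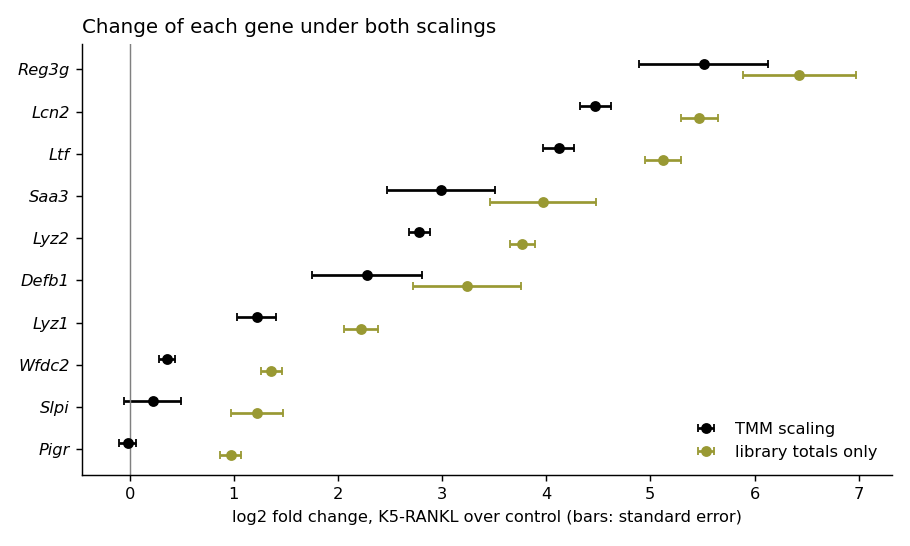
Log2 fold change of K5-RANKL over control (x axis, bars are standard errors) of each defence gene, by TMM scaling (black) and by library totals only (olive). The order of the genes is the same under both scalings, and Pigr moves from −0.02 to 0.97.

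Levels between genes were compared as CPM per kilobase of the RefSeq-matched GENCODE M21 transcript. In controls Lyz2 at 159 ± 19.6 and Pigr at 159 ± 9.71 led and overlapped, followed by Wfdc2 at 92.2 ± 2.78. Lyz1 at 11.2 ± 3.14 and Slpi at 8.13 ± 3.55 overlapped, and Lcn2 at 3.0 ± 0.964 and Ltf at 1.11 ± 0.189 came next without overlap. Saa3, Defb1 and Reg3g stood at 0.519 ± 0.531, 0.173 ± 0.125 and 0.0796 ± 0.138, in overlapping ranges, and the highest Saa3 library passed the lowest Ltf library. In K5-RANKL glands Lyz2 stood alone at 1094 ± 42.0, followed by Pigr at 157 ± 8.31, Wfdc2 at 118 ± 10.3 and Lcn2 at 66.9 ± 6.23. Lyz1 at 26.4 ± 3.69, Ltf at 19.2 ± 2.59 and Slpi at 9.73 ± 1.75 did not overlap with their neighbours. Reg3g at 3.93 ± 1.25 and Saa3 at 3.86 ± 1.13 overlapped, and Defb1 at 0.852 ± 0.0534 was lowest (SD, n = 3 throughout). Lcn2 and Ltf passed Slpi in this order, and Lcn2 also passed Lyz1.

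The K5-RANKL libraries differed among themselves. K5-RANKL 1 was highest for 7 of the 10 genes and lowest for 2. K5-RANKL 2 was lowest for 5 (Ltf, Lcn2, Wfdc2, Saa3 and Defb1) and highest for 3 (Slpi, Pigr and Lyz1), and K5-RANKL 3 was lowest for 3 and highest for 0. Each library was set against the mean of the other libraries of its group, as log2(CPM + 0.5). The median deviation of the 10 genes was then 0.19, −0.02 and −0.09 in K5-RANKL 1 to 3. Tnfsf11 was lowest in K5-RANKL 2 and highest in K5-RANKL 3, so the order of the medians did not follow that of Tnfsf11.

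Other secreted defence genes went both ways. The list held 42 genes, and 17 had enough counts to test: 11 rose, 5 fell and 1, Sftpd, was not called (median log2 fold change 1.27). Among all genes tested 34.2% rose and 32.1% fell. S100a8 and S100a9, among the 11, passed the filter only through the K5-RANKL libraries. Lgals3, encoding the lectin galectin-3, rose by 2.02 (SE 0.08), from 21.2 ± 0.842 to 86.1 ± 3.83 CPM. The genes that follow were chosen after their values were seen. Chi3l1, a chitinase-like protein gene, rose by 4.13 (SE 0.19), from 0.871 ± 0.191 to 15.1 ± 1.53 CPM, and haptoglobin gene Hp by 1.27 (SE 0.21). Pglyrp1, a peptidoglycan recognition protein gene, rose by 1.57 (SE 0.39, edgeR adjusted p = 0.023), a call lost without control 2, control 3 or any 1 of the K5-RANKL libraries, at adjusted p between 0.0556 and 0.0728. Bpifa2, the parotid secretory protein, named by its abundance, stood at 57118, 95077 and 105907 CPM in controls and at 1703, 1388 and 316 CPM in K5-RANKL libraries, and fell by 6.24 (SE 0.89, edgeR adjusted p = 0.0033). Lpo, encoding the peroxidase of saliva, fell by 2.25 (SE 0.12), from 1209 ± 89.8 to 255 ± 43.7 CPM. Of 11 acinar cell markers, Bpifa2 and Lpo among them, 11 fell, and their summed level went from 186963 to 231216 CPM in controls to 23836 to 33335 CPM in K5-RANKL libraries; its part in the fall of Bpifa2, Lpo and Wfdc12 was not tested.

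**Figure D4:**
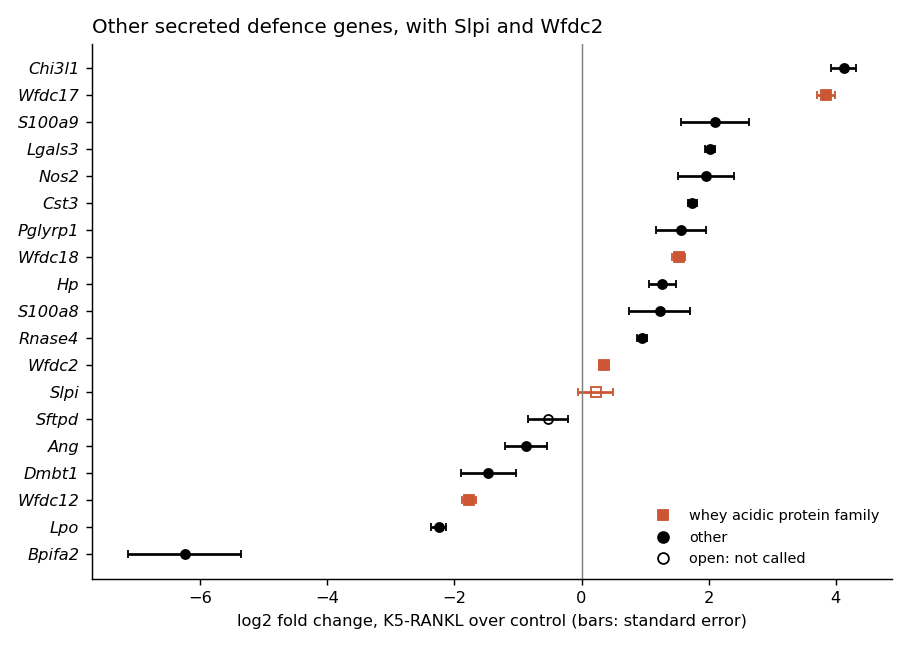
Log2 fold change of K5-RANKL over control (x axis, bars are standard errors) of the 17 measured genes of the list of other secreted defence proteins, with Slpi and Wfdc2; squares are genes of the whey acidic protein family and open symbols did not pass the test. Chi3l1 and Wfdc17 are at 4.13 and 3.85, Slpi and Wfdc2 at 0.22 and 0.36, and Bpifa2 at −6.24.

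Cytokines, receptors and factors known to induce these genes were described beside them. Of 16 measured, 11 rose, 3 fell and 2 were not called (median log2 fold change 0.81), beside 34.2% rising and 32.1% falling among all genes. Il1a, among the 11, passed the filter only through the K5-RANKL libraries. Il1b, Tnf, Cebpb, Cebpd, Elf3, Nfkbiz, Il17ra, Il17rc and Traf3ip2 are named after their values were seen. The cytokine genes Il1b and Tnf rose by 3.25 (SE 0.28) and 2.76 (SE 0.29), to 6.76 ± 1.15 and 4.62 ± 0.441 CPM. The lipopolysaccharide co-receptor gene Cd14, the receptor gene Tlr2 and Stat3 rose by 1.89, 1.87 and 1.1. Cebpd and Nfkbiz, transcriptional regulators of acute phase and IL-17 target genes, rose by 1.28 and 0.76. The 2 genes not called were Cebpb, at −0.06 (SE 0.34), and Elf3, at −0.07 (SE 0.10). Il17a, Il17f and Il22, whose products induce Lcn2 and Reg3g in other epithelia, had 0 counts in controls and 1, 4 and 1 counts over the K5-RANKL libraries. The IL-17 receptor genes Il17ra and Il17rc went opposite ways on the TMM scale. Il17ra rose by 0.85 (SE 0.09), and Il17rc fell by 0.53 (SE 0.10), a call lost by library totals. Traf3ip2, the adaptor gene of the IL-17 receptor, and the epithelial factor gene Ehf fell by 0.90 (SE 0.09) and 0.61 (SE 0.07) on the TMM scale. By library totals they were at 0.10 and 0.39.

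Genes of iron handling, the process that lipocalin 2 and lactoferrin act on, went both ways. Of 16 measured, 9 rose, 3 fell and 4 were not called (median log2 fold change 0.77), beside 34.2% rising and 32.1% falling among all genes. Hamp, Lrp2 and Bdh2 had under 10 counts in every control, and of the other 13 genes 7 rose and 3 fell. Slc22a17, encoding a receptor for lipocalin 2, stood at 20.7, 20.6 and 20.2 CPM in controls and at 3.28, 3.64 and 3.82 CPM in K5-RANKL libraries. Each K5-RANKL library lay under every control, and Slc22a17 fell by 2.52 (SE 0.12, edgeR adjusted p = 6.23e-12). Lrp2, encoding megalin, which also takes up lipocalin 2, rose by 3.91 (SE 0.36), from 7 counts in controls to 207 in K5-RANKL libraries, and was chosen after its value was seen. The ferritin genes Fth1 and Ftl1 rose by 0.89 and 0.90 (SE 0.08 each), and Steap3, an endosomal iron reductase gene, by 1.57 (SE 0.11).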

How the data were processed

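The authors deposited raw whole-number read counts per gene for 6 libraries; alignment with STAR to mm10 is per the submitters' processing notes, and the counting tool, annotation, strand setting and multiple-match rule are not given in the labels. mRNA libraries were made with a stranded kit from 250 ng of RNA, per the labels. Counts were filtered (edgeR filterByExpr, minimum 10), scaled by TMM and tested on all 6 libraries without covariates with edgeR 4.0.16 (robust quasi-likelihood, two-sided) in R 4.3.3, with limma 3.58.1 and DESeq2 1.42.0 as alternatives. Standard errors are the fold change over the square root of F. Libraries of a group differed by a chi-square of 6.26 to 38.3 per gene, above sampling noise. Positions are from RefSeq GRCm38.p6, the assembly of mm10, by Entrez identifier (23495 of 23571 matched). The test was run first on simulated counts in which 200 genes changed. It recovered 59.7% of genes changed 1.5-fold, 92.5% at 2-fold and 100% at 4-fold, and called 7 of 13648 unchanged genes. Far fewer genes changed there than were called here, so the simulation does not cover the dependence on scaling. The 10 genes, the 12 other lists and the motifs were chosen with earlier results of these data known. The rule for named genes was the 10 and, from each list, the 2 called with the smallest p and the 2 most abundant; lists with 8 or fewer measured genes and genes at 0 in a group could be named too, and others are said to be chosen after their values were seen. It was not carried through for the acinar, duct, basal and myoepithelial, and fibroblast lists, which are given as counts apart from the acinar genes Bpifa2 and Lpo. Duct (4 rose, 6 fell of 10), basal and myoepithelial (4 rose, 3 fell of 8) and fibroblast markers (7 rose, 0 fell of 8) were counted too. The shares over all genes tested were 34.2% rising and 32.1% falling. Symbols were matched through RefSeq synonyms for 7 genes.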

Additional observations from a re-analysis of the deposited data

How the results depend on the processing

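With 3 pools per group the spread is estimated from few libraries, and the genes with under 10 counts in controls are limited by depth. Alternatives were RLE and upper-quartile factors, library totals, no filter, at least 50 counts in 3 libraries, DESeq2, voom with and without quality weights, and leaving out each library. Ltf, Lcn2, Wfdc2, Saa3, Lyz1, Lyz2, Reg3g and Defb1 kept their direction and call wherever they were tested, Ltf from 3.98 to 5.12, Lcn2 from 4.24 to 5.47, Lyz2 from 2.68 to 3.77, Lyz1 from 1.01 to 2.22 and Wfdc2 from 0.28 to 1.36. Reg3g ran from 4.89 to 8.73, Saa3 from 2.32 to 4.02 and Defb1 from 1.93 to 3.24. With at least 50 counts in 3 libraries 5 of the 10 genes rose, because Saa3, Reg3g and Defb1 were not tested, and 4 neutrophil markers rose and 3 other defence genes fell, with fewer genes tested. By library totals 11733 of 14044 genes tested rose (83.5%, and 94.4% of the calls against 51.6%) and 698 fell. Pigr was then at 0.97, Ehf at 0.39 and Traf3ip2 at 0.10, all turned in sign, and Slpi was called at 1.22. The lists then held 3 falling of 17 other defence genes and 0 falling of 16 inducers. Of 13 IgA genes 8 rose and 2 fell, and of 16 iron genes 15 rose and 1 fell, beside 83.5% of all genes rising. Falling were also 0 of 7 proteases, 1 of 5 plasma cell markers and 0 of 8 basal and myoepithelial markers. Pigr was at 0.03 without control 2, with no call, and ran from −0.07 to 0.03 over the libraries left out. Falling other defence genes numbered 3 to 5 over the libraries left out, 3 of them without control 3. Of 46 other genes followed through the alternatives, 39 kept direction and call under every one. Some named genes were not followed, among them Klk8, Cma1, Mcpt4, Tpsb2, Prdm1, Irf4, Derl3, Mzb1, Sftpd, Cebpb, Elf3 and Il17rc. No paired analysis was possible because the labels carry no replicate numbers.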
